A study of Mus musculus with 30 samples.

Results

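The small proline-rich (Sprr) genes were followed in the back skin of mice painted with the phorbol ester TPA. Of 10 Sprr genes listed by symbol, 8 were each carried by 1 probe set of the Affymetrix array, out of 45037 probe sets not counting controls, and all 8 stayed above the limit for low values. They were Sprr1a, Sprr1b, Sprr2d, Sprr2f, Sprr2h, Sprr2i, Sprr2k and Sprr3. The other members, Sprr2b and Sprr4, were not analysed here, because no probe set of the table used carried their symbol. WT and D6-deficient female mice on a 129–C57BL/6 background, aged 8 to 12 weeks, received 3 paintings of TPA in acetone on shaved back skin at daily intervals, and whole back skin was taken 1, 2, 4 or 6 days later. The D6-deficient mice are described as null for D6 (Ccbp2), an atypical receptor that takes up and degrades inflammatory CC chemokines. Day 0 skin of each genotype is described as acetone-treated in the design and as untreated in the titles, so what the day 0 mice received rests on the design text. The 10 combinations of genotype and day had 3 arrays apiece, each from its own mouse, and the values are log2 RMA intensities, on which a step of 1 is a doubling.

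Sprr proteins are short, repeat-rich and heavy in proline, glutamine and cysteine. Keratinocytes make them late in their differentiation, and transglutaminases link them to loricrin, involucrin and each other in the cornified envelope, the shell that replaces the membrane of a dying keratinocyte. Their genes form a tight cluster in the epidermal differentiation complex, which also holds the genes for loricrin and filaggrin. SPRR1 and SPRR2 proteins are low in resting interfollicular epidermis and are known markers of wounded, irritated and psoriatic skin, whereas SPRR3 is best known from the lining of the mouth and esophagus.

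In the RefSeq annotation of GRCm38.p6, the members lie in 1 run on chromosome 3. The Sprr2 genes lie on the plus strand in the order Sprr2b, Sprr2d, Sprr2f, Sprr2h, Sprr2i and Sprr2k, with other Sprr2 genes and pseudogenes between some of them, and are followed on the minus strand by Sprr1b, Sprr3, Sprr1a and Sprr4. The 200 bases before the annotated start are shown for 6 members that stand for the patterns described below, with matches to the AP-1 motif TGANTCA and the TATA box TATAAA in capitals. The stretches are chr3:92485882-92486081 on the minus strand for Sprr1a, chr3:92438780-92438979 on the minus strand for Sprr1b, chr3:92364987-92365186 on the plus strand for Sprr2f, chr3:92407791-92407990 on the plus strand for Sprr2i, chr3:92432382-92432581 on the plus strand for Sprr2k and chr3:92458721-92458920 on the minus strand for Sprr3, all read 5′ to 3′ along the gene.
Sprr1a: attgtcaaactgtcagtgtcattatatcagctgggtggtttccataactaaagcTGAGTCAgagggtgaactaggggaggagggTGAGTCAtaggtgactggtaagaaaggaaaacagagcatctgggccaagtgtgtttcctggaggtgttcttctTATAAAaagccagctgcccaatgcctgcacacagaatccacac
Sprr1b: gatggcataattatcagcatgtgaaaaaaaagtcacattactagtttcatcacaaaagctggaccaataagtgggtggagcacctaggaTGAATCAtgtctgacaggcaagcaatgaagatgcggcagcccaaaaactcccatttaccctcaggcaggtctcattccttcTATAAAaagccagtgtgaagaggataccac
Sprr2f: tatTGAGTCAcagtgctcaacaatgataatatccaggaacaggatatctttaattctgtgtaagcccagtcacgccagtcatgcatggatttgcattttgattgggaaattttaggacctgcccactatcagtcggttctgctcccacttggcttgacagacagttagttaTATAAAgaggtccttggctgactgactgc
Sprr2i: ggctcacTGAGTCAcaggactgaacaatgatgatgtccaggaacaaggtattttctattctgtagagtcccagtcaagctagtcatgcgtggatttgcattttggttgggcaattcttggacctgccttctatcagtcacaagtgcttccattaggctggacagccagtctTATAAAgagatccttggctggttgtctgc
Sprr2k: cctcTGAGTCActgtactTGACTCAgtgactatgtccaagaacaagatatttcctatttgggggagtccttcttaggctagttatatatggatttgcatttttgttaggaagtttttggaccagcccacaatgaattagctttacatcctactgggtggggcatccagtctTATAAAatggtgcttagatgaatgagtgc
Sprr3: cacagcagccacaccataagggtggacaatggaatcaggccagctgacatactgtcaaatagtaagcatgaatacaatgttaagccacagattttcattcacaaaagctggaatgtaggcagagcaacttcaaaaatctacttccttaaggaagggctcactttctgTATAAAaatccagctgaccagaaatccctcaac
AP-1 is the dimer of Fos and Jun proteins through which TPA is known to act on many promoters. Its letters stood in the 250 bases before the start of 8 of the 10 members, whereas 6.73% of 32544 RefSeq promoter windows of this length held them on either strand. The 6 Sprr2 members each held TGAGTCA with its first base between 193 and 198 bases before the start, and Sprr2k held a further TGACTCA at 182 bases. Sprr1a held TGAGTCA at 146 and 116 bases and Sprr1b held TGAATCA at 111 bases. These letters were not in the windows of Sprr3 and Sprr4. TATAAA stood in 9 of the 10 windows, at 29 bases in every Sprr2 member, against 12.3% of all windows. The Ets letters GGAAGT were in the windows of Sprr2b, Sprr2k and Sprr3 (19.8% of all windows), the Klf letters GGGTGNGG in those of Sprr2b and Sprr2k (15.0%), and the interferon response element in 0 of the 10 (2.98%). The 5 measured Sprr2 genes shared 57.0 to 80.6% of aligned positions of these 250 bases with each other, highest between Sprr2h and Sprr2k. They shared 44.3 to 53.3% with Sprr1a, Sprr1b and Sprr3. Matches are descriptions of the letters, and binding was not measured.

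**Figure D1:**
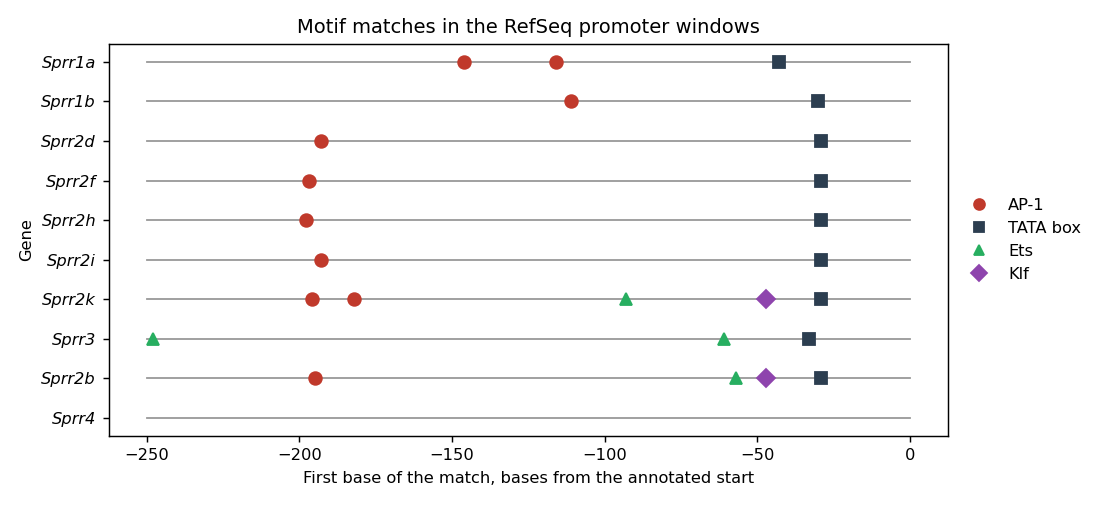
Matches to 4 motifs in the 250 bases before the annotated start of the 10 member genes, by position on the x axis (bases from the start) and gene on the y axis. The AP-1 letters of the 6 Sprr2 genes lie between 193 and 198 bases before the start, and Sprr3 and Sprr4 show no AP-1 match.

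The skin carried its own markers, and several of them changed with the day. The summed linear intensity of the basal keratins (Krt5, Krt14, Krt15 and a probe set shared by Krt14 and Krt17) was 11867 to 32856 on all arrays. The suprabasal keratins Krt1, Krt10 and Krt2 summed to 15098 to 29271 on days 0, 1, 2 and 6 but to 567 to 3639 in WT and 275 to 1156 in D6-deficient mice on day 4. The 5 hair follicle keratins summed to 115 to 183 on days 0, 2 and 4 and to 1804 to 41806 on days 1 and 6, in both genotypes. The targeted gene Ccbp2 was at 3.30 to 3.86 in the 15 D6-deficient and at 4.15 to 5.76 in the 15 WT arrays on 1 of its 3 probe sets, and the genotypes overlapped on the other probe sets. Sebocyte markers summed to 3500 to 7816 and skeletal muscle markers to 54919 to 67025 on day 0, and to 54 to 2304 and 15511 to 40309 after TPA. Array medians lay between 5.64 and 5.80.

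All 8 measured genes but Sprr3 rose in both genotypes after TPA, and the size of the rise spread widely among them. Sprr2f rose furthest, 427-fold in WT mice by day 4, which was the largest increase among all 36029 probe sets tested in that comparison. Its WT day 0 mean of 4.84 lay below the array medians of 5.64 to 5.80, so this fold and its rank depend on signals near the low end of the scale. Sprr1b, Sprr2d, Sprr2h and Sprr2i rose 164- to 239-fold in WT mice at day 4 and Sprr1a and Sprr2k 16.2- and 7.66-fold, while Sprr3 was at 1.25-fold. A probe set was called changed at a Benjamini-Hochberg adjusted p under 0.05 in limma and a change of more than 3-fold. In WT mice 6 of the 8 members were called higher than at day 0 on day 1, 7 on day 2, 7 on day 4 and 6 on day 6, where 0.93%, 1.2%, 1.76% and 0.799% of all probe sets tested were called higher on these days. In D6-deficient mice 7, 7, 7 and 6 were called higher, against 1.06%, 1.7%, 1.97% and 0.888% of all probe sets. The median change of the 8 members at day 4 was 7.36 in WT and 5.13 in D6-deficient mice, and that of all probe sets 0.01 in both. Whole skin was ground for RNA, so more keratinocytes of a kind and more RNA per keratinocyte cannot be told apart. Day 4, on which most members peaked, was the day with the lowest suprabasal keratins, and hair follicle keratins were high on days 1 and 6. The part of these markers in the courses of the Sprr genes was not tested.

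**Figure D2:**
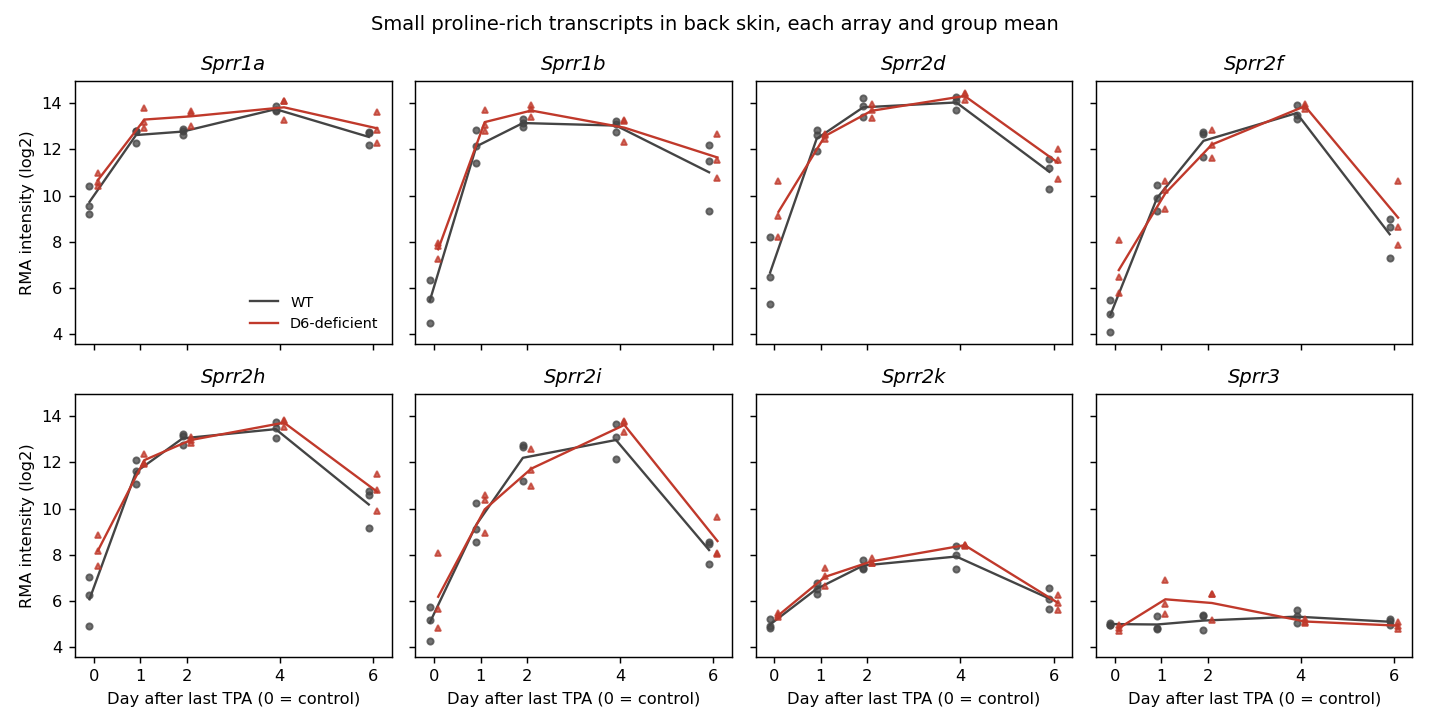
Log2 RMA intensity (y axis) of the 8 measured Sprr genes by day after the last TPA painting (x axis, day 0 is the control), with 1 point for each array and lines through the means of 3 arrays, WT in gray circles and D6-deficient in red triangles. Sprr2f climbs from 4.84 at day 0 to 13.57 at day 4 in WT mice and is back at 8.33 at day 6. Of the induced genes Sprr1a falls least from day 4 to day 6, and Sprr3 stays near 5 in WT mice.

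Sprr2f, one of the precursors that transglutaminase links into the envelope, was at 5.50, 4.11 and 4.90 on the WT day 0 arrays, near the low end of the scale. On day 1 it was at 10.44, 9.34 and 9.91, on day 2 at 12.75, 12.68 and 11.69, and on day 4 at 13.49, 13.32 and 13.91. The arrays of these days did not overlap with each other, so each step was larger than the spread between mice. The change from day 0 was 5.06 on day 1, 7.54 on day 2 and 8.74 on day 4 (SE 0.59, adjusted p = 1e-10 on day 4). In D6-deficient mice Sprr2f was at 6.46, 5.79 and 8.10 on day 0 and at 13.97, 13.89 and 13.75 on day 4, a change of 7.09 (SE 0.59, adjusted p = 1.5e-09). The D6-deficient day 4 arrays all lay above the day 2 arrays of 12.82, 11.62 and 12.19, and differed among themselves by far less than the day 0 arrays.

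Sprr2i followed the same course as Sprr2f. Its WT arrays were at 5.75, 4.26 and 5.19 on day 0, at 10.24, 8.55 and 9.13 on day 1, and at 13.09, 12.15 and 13.68 on day 4. The WT rise at day 4 was 7.90 (SE 0.67, adjusted p = 3.4e-09) and the D6-deficient rise 7.43 (SE 0.67, adjusted p = 5.1e-09), the third largest of all probe sets tested in that comparison. These are the slow members of the family: on day 1 Sprr2f stood at 7.8% and Sprr2i at 7.88% of their own WT day 4 level on the linear scale, and on day 2 at 43.5% and 58.7%. In D6-deficient mice the day 1 levels were 7.35% and 7.95% of day 4. Such shares rest on how each probe set responds near the ends of its range.

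Sprr2d and Sprr2h moved almost as one, with a Pearson r of 0.993 over the 30 arrays. Sprr2d was at 8.19, 5.32 and 6.49 on the WT day 0 arrays and at 12.84, 11.93 and 12.61 on day 1, with no overlap. It reached 14.10, 13.72 and 14.28 on day 4, a rise of 7.36 (SE 0.53, adjusted p = 3e-10), and its day 4 and day 2 arrays overlapped. Sprr2h rose by 7.36 as well (SE 0.45, adjusted p = 2.7e-11), from 7.06, 4.91 and 6.27 to 13.50, 13.07 and 13.75. By day 1 Sprr2d was at 33.6% and Sprr2h at 27.7% of their WT day 4 level, several times the share of Sprr2f and Sprr2i. The name of the Sprr2h probe set carries the suffix that Affymetrix gives to sets matching several transcripts, and Sprr2 genes are close copies of each other, so how much signal the Sprr2 probe sets share is uncertain.

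Sprr2k was the least induced of the measured Sprr2 members on its probe set. It was at 5.23, 4.84 and 4.92 on the WT day 0 arrays, at 6.78, 6.29 and 6.54 on day 1 and at 8.01, 7.39 and 8.40 on day 4. Day 0 and day 1 did not overlap, but the day 1 rise of 1.54 was 2.91-fold and stayed under the 3-fold limit (SE 0.23, adjusted p = 3e-05). It passed that limit with the array set as a covariate (1.61) and without WT day 0 replicate 1 or WT day 1 replicate 2 (1.66 in both). On day 4 the rise was 2.94 in WT and 3.03 in D6-deficient mice (SE 0.23, adjusted p = 8.9e-10 and 3.1e-10). The D6-deficient day 4 arrays, at 8.44, 8.40 and 8.43, were the tightest group of any member, with an SD of 0.02. In D6-deficient mice its day 1 rise of 1.65, 3.14-fold, passed the limit. It fell below the limit with the array set as a covariate (1.58) and without replicate 1 of that day (1.47).

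Sprr1b had the largest day 1 rise of the members in both genotypes. It was at 6.33, 4.51 and 5.51 on the WT day 0 arrays and at 12.83, 11.40 and 12.16 on day 1, a rise of 6.68 or 102-fold (SE 0.54, adjusted p = 1.7e-08), the third largest of all probe sets on that day. Its WT mean peaked on day 2, at 13.14 ± 0.17 (SD, n = 3), against 13.03 ± 0.24 on day 4, and these days overlapped. In D6-deficient mice the day 2 mean of 13.68 was followed by day 1 at 13.18 and day 4 at 12.94, and day 1 stood at 118.0% of day 4 against 53.7% in WT mice. Sprr1b and Sprr1a encode the SPRR1 proteins, which are known as markers of squamous differentiation.

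Sprr1a gave a signal well up the scale before TPA and on day 4 rose least after Sprr2k and Sprr3. Its WT arrays were at 9.20, 10.43 and 9.55 on day 0, at 12.79, 12.79 and 12.28 on day 1 and at 13.70, 13.65 and 13.87 on day 4. The WT day 4 arrays lay above all day 2 arrays, and the rise at day 4 was 4.01 (SE 0.31, adjusted p = 9.4e-10) against 3.14 in D6-deficient mice (SE 0.31, adjusted p = 2.4e-08). On day 1 Sprr1a stood at 46.0% of its WT day 4 level and in D6-deficient mice at 69.4%.

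Sprr3 stayed near the low end of the scale. Its WT arrays ran from 4.75 to 5.61 over all days, and the changes from day 0 of -0.02, 0.16, 0.33 and 0.10 on days 1, 2, 4 and 6 did not pass the test (adjusted p = 0.97, 0.73, 0.38 and 0.84), with the sign of the day 1 change turning to 0.01 after median centring of the arrays. In D6-deficient mice it was at 4.84, 4.97 and 4.69 on day 0, at 6.92, 5.87 and 5.46 on day 1 and at 5.18, 6.29 and 6.30 on day 2. Neither day 1 nor day 2 overlapped with day 0, and the rises of 1.25 (SE 0.28, adjusted p = 0.0012) and 1.09 (SE 0.28, adjusted p = 0.0032) passed the adjusted p but, at 2.37- and 2.13-fold, not the 3-fold limit. On days 4 and 6 it was at 5.06 to 5.23 and 4.81 to 5.08.

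**Figure D3:**
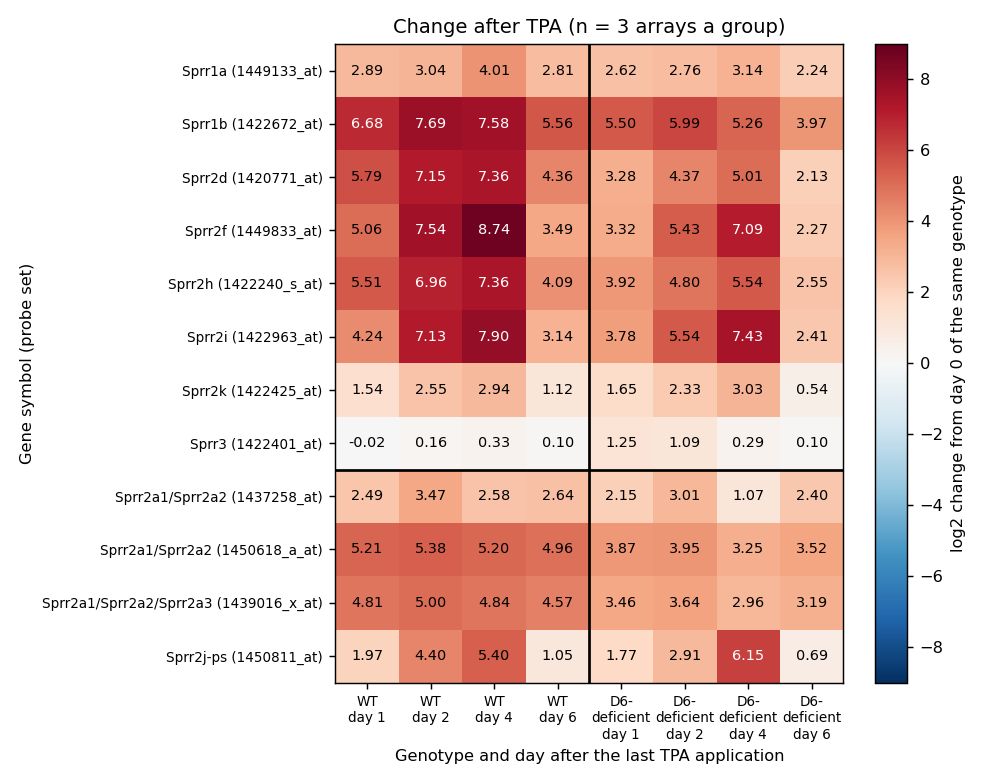
Log2 change from day 0 of the same genotype (color and printed value) for the 8 measured members above the line and 4 further Sprr probe sets below it, on days 1, 2, 4 and 6 in WT (left) and D6-deficient (right) mice, each from 3 arrays against 3. The darkest cell is Sprr2f at day 4 in WT mice (8.74), the Sprr3 row is near 0 in WT mice, and the Sprr2a rows hold their rise at day 6, where the Sprr2f and Sprr2i rows have lost most of it.

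Between day 4 and day 6 Sprr2f and Sprr2i fell most. In WT mice Sprr2f fell 37.9-fold and Sprr2i 27.1-fold, Sprr2h 9.62-fold, Sprr2d 8.03-fold, Sprr1b 4.06-fold and Sprr2k 3.53-fold, and these 6 were called lower, against 1.1% of all probe sets. In D6-deficient mice Sprr2i fell 32.5-fold, Sprr2f 28.3-fold, Sprr2h 7.97-fold, Sprr2d 7.37-fold and Sprr2k 5.63-fold, and these 5 were called lower, against 1.56% of all probe sets. The D6-deficient change of Sprr1b was -1.29 (adjusted p = 0.074) and that of Sprr1a -0.90 (adjusted p = 0.03), and the WT change of Sprr1a was -1.20 (adjusted p = 0.0066), the last 2 under 3-fold. Without D6-deficient day 6 replicate 2 the change of Sprr1b was -1.79 (adjusted p = 0.024) and was called.

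For Sprr2f the WT day 6 arrays were at 7.32, 9.01 and 8.66, below every day 2 and day 4 array and above every day 0 array. The D6-deficient arrays were at 8.65, 10.64 and 7.85, and the lowest of them overlapped with the highest day 0 array. Sprr2f was then at 2.64% of its day 4 level in WT and at 3.53% in D6-deficient mice, and Sprr2i at 3.69% and 3.07%. Sprr1a retained 43.5% and 53.5%, Sprr1b 24.6% and 41.0%, and Sprr2k 28.4% and 17.7%. The WT fall of Sprr1b rested on replicate 1 of day 6, whose value of 9.34 lay far below 12.19 and 11.49, and without that array the change was -1.19 (adjusted p = 0.094).

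At day 6 the members still stood above day 0, with 6 called in each genotype as given above. In D6-deficient mice the rises were 2.24 for Sprr1a, 3.97 for Sprr1b, 2.13 for Sprr2d, 2.27 for Sprr2f, 2.55 for Sprr2h and 2.41 for Sprr2i. Those of Sprr2d, Sprr2f and Sprr2i depended on single arrays or on the shared estimate of the spread, since their calls were lost in a fit to the day 0 and day 6 arrays alone (adjusted p = 0.05, 0.093 and 0.085). Without replicate 2 of day 6 the rise of Sprr2f was 1.47 (adjusted p = 0.06) and that of Sprr2i 1.89 (adjusted p = 0.062). Without replicate 2 of day 0 that of Sprr2d was 1.58, under 3-fold (adjusted p = 0.037), and that of Sprr2i 1.73 (adjusted p = 0.071). Sprr2k was 2.17-fold above day 0 in WT (adjusted p = 0.0011) and 1.45-fold in D6-deficient mice (adjusted p = 0.076).

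In several groups the same mouse was the highest or the lowest for most of the induced members. Among the 7 induced members, replicate 3 of WT day 4 was the highest array for all 7 and replicate 2 the lowest for all 7. Replicate 1 of WT day 6 was the lowest for all 7, replicate 1 of D6-deficient day 1 the highest for all 7 and replicate 2 of D6-deficient day 6 the highest for all 7. On WT day 0 replicate 1 was the highest for 6, with Sprr1a highest on replicate 2. In other groups the highest array was divided among mice, 4 and 3 members on WT day 2, 4, 1 and 2 on D6-deficient day 2, and 5 and 2 on D6-deficient days 0 and 4. The median SD of the 7 members in WT and D6-deficient mice was 0.75 and 0.67 on day 0, 0.30 and 0.16 on day 4, and 0.66 and 0.81 on day 6, against a median of 0.187 over all probe sets and groups. The lower median on day 4 did not hold for each gene, since the SD of Sprr2k in WT mice was 0.51 on day 4 against 0.21 on day 0, and that of Sprr1b in D6-deficient mice 0.55 against 0.36. Over the 30 arrays the pairs among the 7 members had Pearson r of 0.83 to 0.993, second highest between Sprr2i and Sprr2f at 0.99, and pairs with Sprr3 of 0.314 to 0.472. These arrays share the time course, so the correlations are given as a description of it.

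Before TPA several of the Sprr genes stood higher in the skin of D6-deficient mice. Sprr1b was at 7.82, 7.28 and 7.95 on the D6-deficient arrays against 6.33, 4.51 and 5.51 on the WT arrays, with no overlap. Sprr2d was at 9.10, 8.19 and 10.62 against 8.19, 5.32 and 6.49, where the lowest D6-deficient and the highest WT array met. Sprr2h was at 8.16, 7.52 and 8.85 against 7.06, 4.91 and 6.27, with no overlap. The differences were 2.23 for Sprr1b (SE 0.54, adjusted p = 0.036), 2.63 for Sprr2d (SE 0.53, adjusted p = 0.013) and 2.10 for Sprr2h (SE 0.45, adjusted p = 0.018), and these 3 of the 8 members were called higher, against 0.0527% of all probe sets.

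Sprr2f was also without overlap at day 0, with 1.95 between the genotypes (adjusted p = 0.096), and Sprr1a differed by 0.95 (adjusted p = 0.13). Sprr2i differed by 1.12, Sprr2k by 0.40 and Sprr3 by -0.17 (adjusted p = 0.48, 0.45 and 0.85). All 3 calls were lost without replicate 2 of the WT controls, the lowest array for 6 of the 7 induced members, with differences of 1.76, 1.96 and 1.51 for Sprr1b, Sprr2d and Sprr2h (adjusted p = 0.18, 0.087 and 0.12). They were lost as well without replicate 3 of the D6-deficient controls (2.10, 1.97 and 1.76, adjusted p = 0.14, 0.095 and 0.11) and in a fit to the 6 day 0 arrays alone (adjusted p = 0.057, 0.16 and 0.11). One call remained without WT replicate 3 (Sprr1b and Sprr2d lost, adjusted p = 0.094 and 0.051) or without D6-deficient replicate 1 (Sprr1b and Sprr2h lost, adjusted p = 0.14 and 0.078).

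Other markers moved with genotype at day 0. The stress keratins Krt6a, Krt6b, Krt16 and Krt17, with the probe set shared by Krt14 and Krt17, summed to 2678 to 7462 in D6-deficient and 1330 to 1981 in WT skin, without overlap. Basal keratins summed to 23966 to 27741 against 16496 to 17137 and suprabasal keratins to 19595 to 20387 against 15098 to 16591. Sebocyte markers summed to 5162 to 7816 against 3500 to 4426. Macrophage markers were lower, at 10929 to 13647 against 15491 to 17201, as were adipocyte markers, at 15836 to 17383 against 17759 to 19490. Hair follicle keratins overlapped, at 124 to 159 against 115 to 144. The part of these markers in the difference in Sprr genes was not tested.

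**Figure D4:**
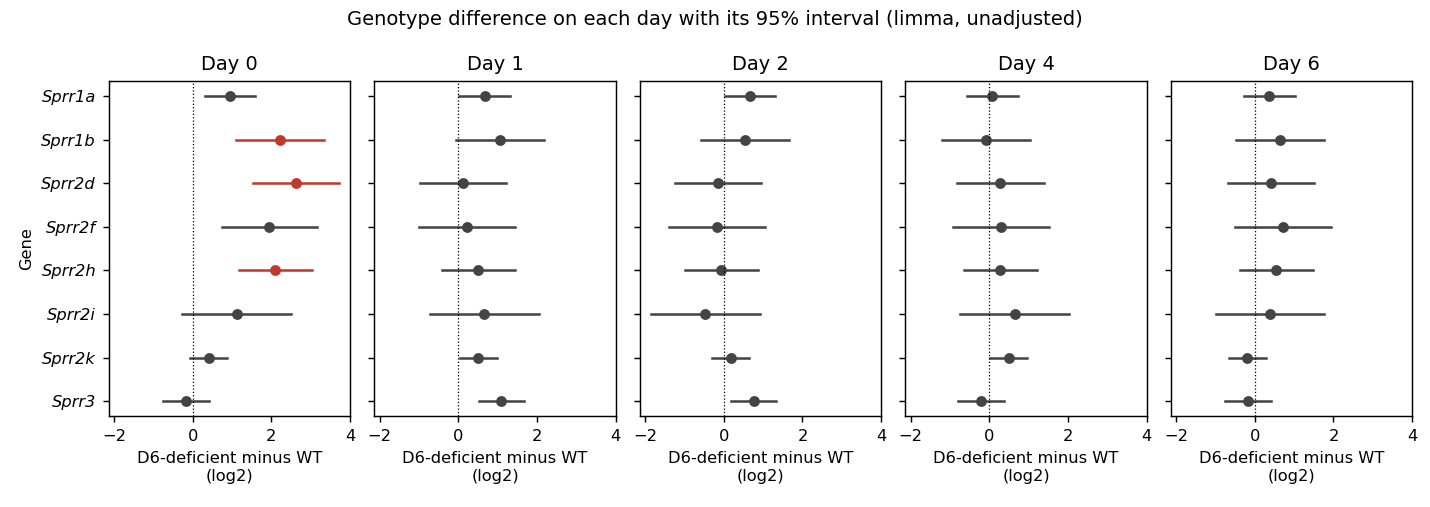
Difference between D6-deficient and WT mice in log2 intensity (x axis) for the 8 measured members (y axis) on each day, with points for the difference of 2 means of 3 arrays and bars for its unadjusted 95% interval from limma, in red where called. The 3 called members, Sprr1b, Sprr2d and Sprr2h, are all on day 0, and the largest later difference is that of Sprr3 on day 1 (1.09).

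On days 1, 2, 4 and 6 none of the 8 members was called between the genotypes in limma. The shares of all probe sets called in either direction were 0.0139%, 0.572%, 0.0777% and 0.0167% on these days. An unadjusted limma p under 0.05, with no fold limit, was reached by 3, 2, 1 and 0 members. The share of all probe sets at that p is not given, so these counts are not set against the shares called. On day 1 all 8 members lay higher in D6-deficient mice, as did 19281 of all 36029 probe sets, with medians of 0.58 and 0.02. On days 2, 4 and 6 it was 4, 6 and 6 members. On day 4 the largest differences were 0.65 for Sprr2i (95% interval -0.74 to 2.03) and 0.49 for Sprr2k (0.02 to 0.96). Sprr2k was the member with an unadjusted p under 0.05 on that day (0.041 in limma, adjusted p = 0.47). Sprr2f differed by 0.30 (-0.92 to 1.51), Sprr2d by 0.28 (-0.82 to 1.38) and Sprr1b by -0.09 (-1.21 to 1.03). The difference of Sprr2h was 0.28 (-0.65 to 1.21). With 3 arrays a group, the intervals of Sprr2i, Sprr2f, Sprr2d and Sprr2h thus did not exclude a 2-fold higher level in D6-deficient mice. That of Sprr1b did not exclude a 2-fold difference in either direction. The intervals of Sprr1a, Sprr2k and Sprr3 were narrower (SE 0.31, 0.23 and 0.28). The means of Sprr2d on days 2 and 4 lay between 13.67 and 14.31, where the highest value on the arrays was 14.98. How the probe sets respond near that end of the scale was not tested. The largest difference after TPA was that of Sprr3 on day 1, at 1.09 (SE 0.28, adjusted p = 0.24), where the D6-deficient arrays of 6.92, 5.87 and 5.46 all lay above the WT arrays of 5.35, 4.84 and 4.78. On day 2 Sprr3 differed by 0.76 (adjusted p = 0.14) with overlapping arrays.

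The change since day 0 was set against the other genotype's change in a further comparison, which carries the day 0 difference with its sign turned. On day 2 Sprr2d had risen 2.78 less in D6-deficient than in WT mice on the log2 scale, a difference of -2.78 (SE 0.75, adjusted p = 0.029), and Sprr2h differed by -2.16 (SE 0.64, adjusted p = 0.046). These 2 members were called lower, against 0.555% of all probe sets. In the same comparison 4 of 5 neutrophil probe sets were called higher, with Ngp at 4.63, and 3 of 4 sebocyte probe sets, with Elovl3 at -4.78, and 9 of 17 Lce probe sets were called lower, and their part in the Sprr values was not tested. The day 2 levels of the Sprr genes themselves differed by -0.15 for Sprr2d and -0.07 for Sprr2h, with D6-deficient arrays of Sprr2d at 13.98, 13.35 and 13.69 and WT arrays at 13.86, 14.21 and 13.39. Sprr2d lost its call in 7 of the 12 fits that left out 1 array, without WT day 0 replicates 2 or 3, WT day 2 replicates 1 or 2, D6-deficient day 0 replicate 3 or D6-deficient day 2 replicates 2 or 3 (-2.79 to -2.10, adjusted p = 0.053 to 0.1). Sprr2h lost it in 10 of 12, all but those without WT day 0 replicate 1 or D6-deficient day 0 replicate 2 (-2.31 to -1.58, adjusted p = 0.054 to 0.15). None of the members was called on days 1, 4 and 6, against 0.00278%, 0.153% and 0.00278% of all probe sets. On these days 4, 3 and 3 members had an unadjusted limma p under 0.05. No share of all probe sets is given at that p either. Sprr3 differed by 0.93 on day 2, the single member with a larger rise in D6-deficient mice on that day (adjusted p = 0.21).

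The Sprr2a probe sets kept another course. Sprr2a1 and Sprr2a2 share 2 probe sets, and 1 more with Sprr2a3, and all 3 were called higher in WT mice on day 1, at 2.49 to 5.21. On that day they already stood at 94.3 to 101.0% of day 4 in WT and at 141.0 to 213.0% in D6-deficient mice. On day 6 they stood at 83.0 to 104.0% of day 4 in WT and at 118.0 to 253.0% in D6-deficient mice, where Sprr2f, Sprr2i, Sprr2d and Sprr2h stood at 2.64 to 13.6%. On day 0, 2 of these Sprr2a probe sets were higher in D6-deficient mice, at 1.52 and 1.49 (adjusted p = 0.0031 and 0.00027). Both were under 3-fold, and the other differed by 0.40 (adjusted p = 0.66). On day 4 relative to day 0 the same 2 were called lower, at -1.94 and -1.88 (adjusted p = 0.017 and 0.0024). Of all probe sets 0.103% were called lower there, and the other Sprr2a probe set was at -1.51 (adjusted p = 0.16). The alternative settings were not run on these probe sets. The pseudogene Sprr2j-ps, which lies between Sprr2i and Sprr2k, followed its neighbours, with a rise of 5.40 in WT mice on day 4 (adjusted p = 1.8e-08) and 4.92% of that level left on day 6. Whether its probe set reads these neighbours was not tested.

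The change of the Sprr genes was set beside the genes of the same envelope. At day 4, 4 of the 4 other Sprr probe sets were called higher in WT and 3 in D6-deficient mice. Of all probe sets 1.76% and 1.97% were called higher on that day. Of 17 probe sets of the late cornified envelope (Lce) genes, 5 were called higher and 1 lower in WT mice, where 1.48% of all probe sets were lower, and 4 higher and 2 lower in D6-deficient mice, where 2.04% were lower. Lce3a rose by 8.39 in WT and 7.59 in D6-deficient mice, and Lce1m fell by 4.14 and 5.18. Lce genes encode further envelope proteins, and Lce3 genes are known to come on in injured and psoriatic skin.

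Loricrin (Lor), the main protein of the envelope, to which Sprr proteins are linked, fell by 2.36 in WT and 4.38 in D6-deficient mice on day 4 (adjusted p = 0.00032 and 8.6e-08). Cornifelin (Cnfn), another envelope protein, rose by 3.66 and 2.85. Of the 16 probe sets of other envelope proteins these made up 3 of the 3 called in each genotype, since loricrin has 2 probe sets, and the median change was 0.11 and -0.66. Of 9 transglutaminase probe sets 2 were called higher in WT and 1 in D6-deficient mice, led by Tgm1, the keratinocyte enzyme that cross-links Sprr proteins, at 2.29 and 2.12.

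Among 5 probe sets of filaggrin and its relatives, 1 was called higher in WT mice, Rptn (repetin) at 3.29, and in D6-deficient mice 1 was higher and 2 lower, with Flg (filaggrin) at -4.39. Of 16 probe sets of S100 genes from the same complex, 2 were called higher in each genotype, led by S100a9, a subunit of calprotectin, at 5.54 and 3.59, and 1 was called lower in D6-deficient mice, a probe set of S100a10 at -1.71 (adjusted p = 5.8e-08). The stress keratins summed to 51219 to 52989 on the WT day 4 arrays, and 7 of their 8 probe sets were called higher there. Neutrophil markers summed to 1113 to 2885 on WT day 4 against 166 to 209 on day 0. Their part in the Sprr changes was not tested.

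Of 26 probe sets of factors known to act on Sprr promoters, 5 were called higher on day 4 in WT and 4 in D6-deficient mice, and 0 lower. Of all probe sets 1.76% and 1.97% were called higher there. The largest change was that of Ehf, an epithelial Ets factor, at 3.63 and 2.91, with its other probe sets at 2.73 and 2.51 in WT mice. Fosl1, a Fos-family partner in AP-1, rose by 1.85 in WT and 1.75 in D6-deficient mice on 1 of its probe sets. Values for the rest of Fosl1 and for the other Fos and Jun genes are not given here. Klf4, a factor of late keratinocyte differentiation, was the lowest, at -0.32 and -1.01 (adjusted p = 0.072 and 0.00029).

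The genes whose log2 values were most like the mean standardized profile of the 8 members over the 30 arrays were Gjb6 (r = 0.982), Lce3c (0.98), Lce3f (0.979), Lce3a (0.975), Krt6a (0.974), Endou (0.973), 1190003J15Rik (0.967), Cnfn (0.966), Klk9 (0.962) and Klk6 (0.961). Gjb6 encodes the gap junction protein connexin 30 and Klk6 and Klk9 encode kallikrein peptidases. Of the members, Sprr2h had the highest r with that mean (0.984) and Sprr3 the lowest (0.517).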

How the data were processed

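RNA from whole back skin was hybridized to Affymetrix mouse genome arrays, 3 mice for each of 10 groups. The authors background-corrected, quantile-normalized and summarized the probes by RMA, and the deposited values are linear intensities. Their log2 values were taken here without further scaling. After 64 controls were removed, the 20% of probe sets with the lowest mean were left out, as in the study's methods, and 36029 of 45037 were tested. limma 3.58.1 in R 4.3.3 (lmFit with 1 mean per group over all 30 arrays, eBayes) gave 19 comparisons, with Benjamini-Hochberg adjustment over all tested probe sets. A call needed more than a 3-fold change together with an adjusted p below 0.05. The fit was tested on simulated data.

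Members were matched by symbol. The members, gene lists and tests were chosen with earlier results of these data known, and no list was given a p. Other genes named are those with the largest change of a list in either direction and the 10 non-members with the highest correlation over the arrays. The Fosl1 values, the other Ehf probe sets, Lor beside Cnfn and the Krt sums were added for their known roles. A marker list was summed over the brightest probe set of each gene. Promoter letters are RefSeq sequence of GRCm38.p6, searched on both strands over 250 bases before the start. Alternatives were no filter, median centring, no fold limit, a replicate block, a covariate for 2 array sets split by the hybridization controls (17 and 13 arrays), a fit to the compared arrays only, the methods' unpaired test for genotype comparisons, and leaving out each array. The number of arrays limits the precision. Figures were drawn with Python 3.11.15 and matplotlib 3.10.9.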

Additional observations from a re-analysis of the deposited data

Results flagged for a closer look

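The change from day 0 to day 2 differed between the genotypes for 2 members by a test of the difference itself (an interaction term in limma). Sprr2d differed by -2.78 (adjusted p = 0.029), D6-deficient minus WT, with a rise of 4.37 against 7.15. Sprr2h differed by -2.16 (adjusted p = 0.046), with a rise of 4.80 against 6.96. The day 0 differences of 2.63 and 2.10 enter both contrasts, and the day 2 levels differed by -0.15 and -0.07.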

How the results depend on the processing

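The rise of the 7 induced members kept its direction under every alternative run. The count of members called higher in D6-deficient mice on day 6 fell from 6 to 3 in a fit to the compared arrays alone. The day 0 genotype count fell from 3 to 0 in that fit and to 0 under the methods' test after Benjamini-Hochberg adjustment. The count for day 2 relative to day 0 fell from 2 to 1 with no filter on low values and to 0 in a fit to the compared arrays alone. It was 4 under the methods' unadjusted test, which gave 1, 3 and 1 on days 1, 4 and 6. Relative to day 0, that test took the day 0 median of each genotype off as a constant and compared the treated arrays. Its p therefore leaves out the day 0 spread, unlike that of limma. No share of all probe sets is given for it, so these counts are not set against limma's. Leaving out 1 array gave 0 to 3 for the day 0 genotype count, 0 to 2 for day 2 relative to day 0 and 0 to 1 for day 4 relative to day 0, 1 without WT day 0 replicate 1. That for D6-deficient day 6 against day 0 ran from 4 to 6, with 4 without D6-deficient replicate 2 of day 0 or of day 6. Other counts moved by less than 1.5 times.

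With the replicate number as a block, the count for day 2 relative to day 0 was 1, since Sprr2h was lost (adjusted p = 0.056), and no other count moved. Of 135 pairs of arrays with the same number 31 correlated above 0.1 in their deviations from the group means, against 63 of 270 pairs with other numbers. No pairing by number showed in these counts, which cannot exclude it.

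Some small differences, all short of the test, turned sign. That of Sprr3 on WT day 1 (-0.02) was 0.01 after centring, 0.08 with the array sets and -0.20 to 0.09 without 1 array. That of Sprr3 on D6-deficient day 6 (0.10) was -0.09 with the array sets. Without 1 array the genotype difference of Sprr2d on day 1 ran from -0.14 to 0.31, of Sprr2k on day 6 from -0.40 to 0.05 and of Sprr2f on day 6 from -0.08 to 1.32. The cause was not tested. Signals near the low end of the scale, such as those of Sprr3 and of the WT controls, limit what small differences can show. The response of the probe sets near the high end was not tested.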
